A study of Mus musculus with 2 samples.

Results

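Zfp36, Zfp36l1, Zfp36l2, Zc3h12a and Elavl1 encode RNA-binding proteins that set how long many short-lived mRNAs last. These 5 genes were picked by name out of the 34745 genes of the deposited tables, and all 5 had reads at both time points. The samples were bone marrow (BM) LSKs, the lineage-negative, Sca1-positive and c-Kit-positive hematopoietic stem and progenitor cells, of Scl/tTA-BA mice on the C57BL/6 background. These mice carry an Scl/tTA transgene, whose tTA is made in stem and progenitor cells, and a TRE-BA transgene that tTA switches on (BA, BCR/ABL) unless doxycycline is given. The week-0 library came from mice kept on doxycycline and the week-3 library from mice 3 weeks after doxycycline withdrawal, and mice of both groups carried both transgenes. Each time point was 1 library made from LSKs of 3 mice mixed together, and the ages of the mice are not given in the sources used here. No spread between mice can therefore be computed, no p-value is given, and each comparison is between these 2 libraries.

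Proteins of the Zfp36 family carry a pair of CCCH zinc fingers. They bind AU-rich elements, runs of A and U in 3' untranslated regions (UTRs), and recruit the CCR4-NOT deadenylase, after which the mRNA is decapped or degraded by the exosome. Zfp36 (tristetraprolin) is itself an early response gene and shortens the life of cytokine mRNAs such as that of Tnf. Zfp36l1 and Zfp36l2 act on Notch1 in thymocytes, and Zfp36l2 is needed for hematopoietic stem cells in mouse embryos. Zc3h12a encodes regnase-1, an endonuclease that cuts mRNAs at stem-loops, and Elavl1 encodes HuR, which binds AU-rich and U-rich elements and stabilizes mRNAs. Reads of an RNA-seq library give the amount of an mRNA and not its half-life.

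The core binding site of the Zfp36 family is the heptamer TATTTAT (written as DNA), and the stronger nonamer is TTATTTATT. Both were searched on the sense strand in the 3' UTR of GENCODE M21 (GRCm38), in the transcript of each gene whose coding sequence was longest, with overlapping matches counted. The UTRs of Zfp36 (774 bases), Zfp36l1 (1835 bases) and Zfp36l2 (1822 bases) each held 3 heptamers, 1 of them in a nonamer. The UTR of Elavl1 (4218 bases) held 8, all in nonamers, and that of Zc3h12a (856 bases) held 0. Windows of 27 bases are printed for 1 nonamer site of each of these 4 genes, since they are the elements by which mRNAs of this family could bind its own proteins, and for a site of Tnf, the best known target. Capitals mark the heptamer, and every window is on the minus strand.

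Zfp36 (chr7:28376952-28376978): atgacgacttTATTTATtgtattaaga

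Zfp36l1 (chr12:80108168-80108194): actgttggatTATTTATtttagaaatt

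Zfp36l2 (chr17:84184915-84184941): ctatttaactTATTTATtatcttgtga

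Elavl1 (chr8:4285789-4285815): tcatgaaaatTATTTATttatttattt

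Tnf (chr17:35199690-35199716): ttgcacttatTATTTATtatttattta

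A match is a description and does not show that a protein binds there.

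For each gene the authors deposited the reads counted on it and its FPKM (fragments per kilobase of exon, scaled to library size). Levels of different genes are compared as FPKM, and changes as the log2 FPKM ratio, week-3 divided by week-0. The 95% intervals of these ratios are exact Clopper-Pearson intervals from the read counts. They hold the counting error of reads alone. Because cDNA was amplified, a read does not stand for a molecule. Error from amplification and spread between mice are left out of the intervals. A gene was called lower when the FPKM ratio was 0.5 or less and higher when it was 2 or more, among the 12192 genes with at least 20 reads over both libraries. By this rule 3 of the 5 genes were lower at week-3 and 0 were higher. Of all genes tested, 15.6% were lower and 10.6% were higher, and the median log2 ratio was 0.07. TMM scaling would move every log2 ratio by -0.11. Of the 1498 genes with 1236 reads or more, as many as the least covered of the 5 genes had, 12.3% were lower.

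Zfp36 (ENSMUSG00000044786, protein-coding, chromosome 7 of GRCm38, minus strand, from 28376784 to 28379255) was the most abundant of the 5 mRNAs in both libraries. Its FPKM was 2695 (30697 reads) in the week-0 library and 977 (6802 reads) in the week-3 library. By FPKM it ranked 11 of all 34745 genes at week-0 and 47 at week-3. The log2 ratio was -1.46 (95% interval -1.50 to -1.43), a level 2.76-fold lower at week-3, and 9.66% of the genes tested had a lower ratio. Zfp36 was past the limit for a lower level, and in both libraries few genes had a higher FPKM. The call was lost in the edgeR exact test with an assumed coefficient of variation of 0.4, and with a limit of 0.25. In bulk libraries such as these, fewer cells that hold an mRNA and less of it per cell cannot be told apart.

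Zfp36l1 (ENSMUSG00000021127, protein-coding, minus strand of chromosome 12, from 80107760 to 80113013) had the lowest ratio of the 5 genes. An FPKM of 38.4 from 1199 reads stood against an FPKM of 1.94 from 37 reads at week-3, and its rank by FPKM went from 1262 to 8651. The log2 ratio was -4.31 (95% interval -4.82 to -3.84), a level 19.8-fold lower at week-3, with an interval from 14.3-fold to 28.3-fold. Of the 12192 genes tested, 84 (0.689%) had a lower ratio. The noncoding gene Gm26669, which overlaps Zfp36l1 on the opposite strand, had 10 and 8 reads in the libraries, and the pseudogene Zfp36l1-ps had 0 in both libraries. The sources used here do not say that counting used strand, so reads of this overlap cannot be assigned to a strand.

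Zfp36l2 (ENSMUSG00000045817, protein-coding, minus strand of chromosome 17, from 84183931 to 84187947) was not called. Its FPKM was 232 (5202 reads) before and 156 (2134 reads) after doxycycline withdrawal. The log2 ratio was -0.58 (95% interval -0.65 to -0.50), and the FPKM ratio was 0.671. Zfp36l2 was lower by more than counting error allows, but by less than 2 times, and 24.8% of the genes tested had a lower ratio.

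The 3 family members kept their order by FPKM in both libraries, Zfp36 above Zfp36l2 and Zfp36l2 above Zfp36l1, with no overlap of their counting intervals. They differed in the size of the change. The log2 ratio of Zfp36l1 minus that of Zfp36l2 was -3.73 (95% interval -4.25 to -3.25, from the exact conditional odds ratio of the reads). The difference of Zfp36 minus Zfp36l2 was -0.89 (interval -0.97 to -0.81), and that of Zfp36 minus Zfp36l1 was 2.84 (interval 2.37 to 3.36). At week-0 Zfp36 made up 90.9% of the summed FPKM of the family, Zfp36l2 7.82% and Zfp36l1 1.29%. At week-3 these shares were 86.1%, 13.7% and 0.171%. The summed FPKM of the family was 2965 at week-0 and 1134 at week-3.

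Zc3h12a (ENSMUSG00000042677, protein-coding, minus strand of chromosome 4, from 125118423 to 125127840) was also lower at week-3. With 1628 reads its FPKM was 83.3 at week-0, against 7.20 from 86 reads in the later library. The log2 ratio was -3.53 (95% interval -3.86 to -3.22), a level 11.6-fold lower at week-3, and 1.71% of the genes tested had a lower ratio. The change of Zfp36l1 was larger than that of Zc3h12a by more than counting error (difference of log2 ratios -0.78, 95% interval -1.38 to -0.19).

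Elavl1 (ENSMUSG00000040028, protein-coding, minus strand of chromosome 8, from 4284782 to 4325100), the stabilizer among the 5 genes, was at the same level in both libraries within counting error. Its FPKM was 24.5 (938 reads) and 24.4 (572 reads). The log2 ratio of -0.00396 had a 95% interval from -0.16 to 0.15, and with TMM scaling it was -0.12. Of the 5 genes, Elavl1 was the lowest by FPKM at week-0, below Zfp36l1. At week-3 it was above Zc3h12a and Zfp36l1. The summed FPKM of the Zfp36 family was 121 times that of Elavl1 at week-0 and 46.5 times at week-3.

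**Figure D1:**
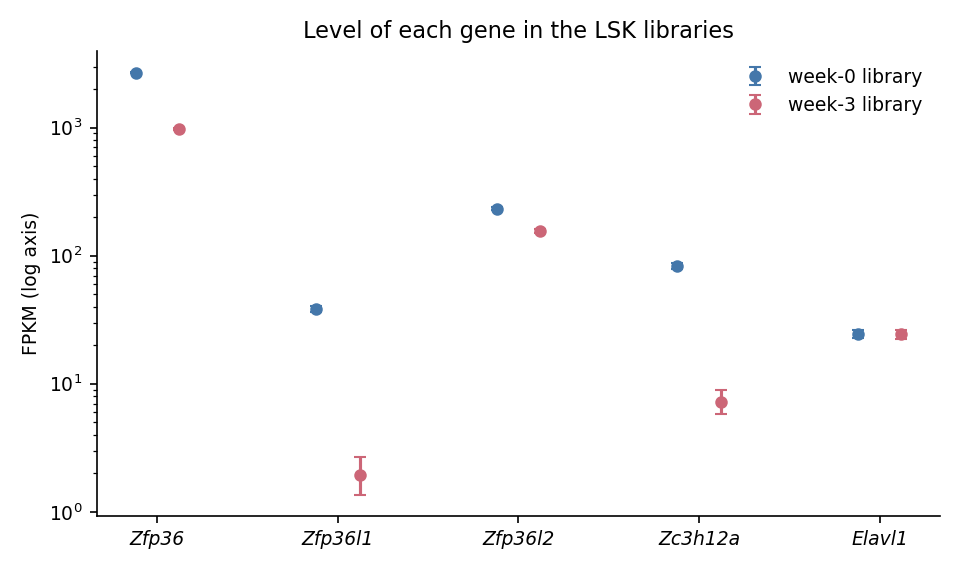
FPKM of the 5 genes (log axis) in the week-0 library (blue) and the week-3 library (red), with exact Poisson 95% intervals of the read counts, which cover counting error only. Zfp36l1 and Zc3h12a are far apart between the libraries (38.4 against 1.94 and 83.3 against 7.20), Zfp36 is at 2695 against 977, and the points of Elavl1 are level.

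**Figure D2:**
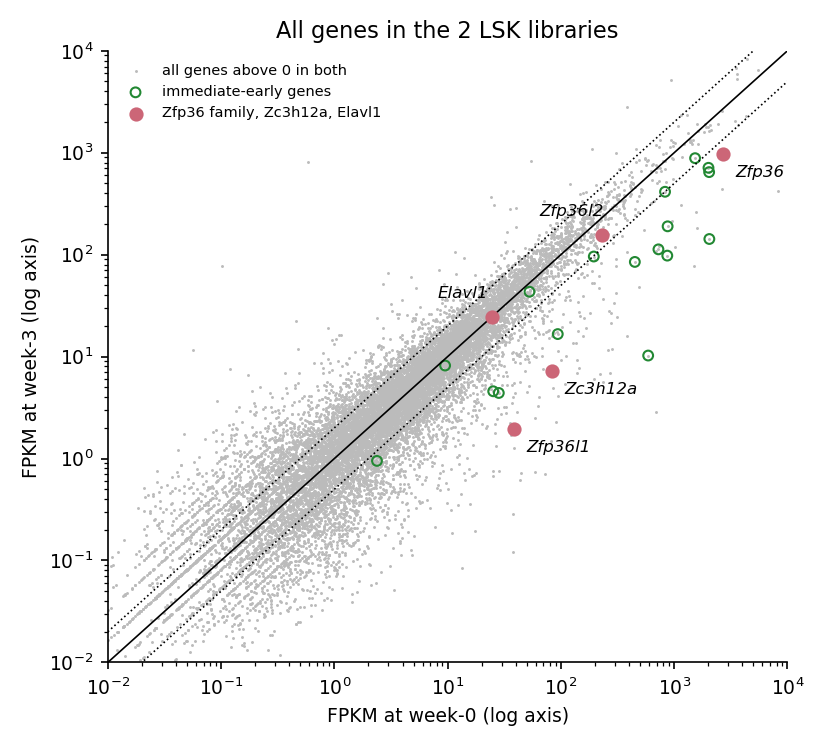
FPKM at week-0 (horizontal, log axis) and week-3 (vertical, log axis) of the genes above 0 in both libraries (grey, those with an FPKM below the start of the axes not shown), the immediate-early genes with reads in both (green circles) and the 5 genes (red). The solid line marks equal levels and the dotted lines a ratio of 2 and of 0.5. Zfp36 lies at the upper end of the immediate-early genes, and Zfp36l1 lies far below the lower dotted line.

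Zfp36 is an early response gene, and mRNAs of other genes of this kind were also lower at week-3. Of 18 immediate-early genes, which many stimuli, cell handling included, induce within minutes, 15 were lower and 0 were higher, with a median log2 ratio of -2.31. Over all genes tested, 15.6% were lower and 10.6% higher. The sum of the 18 genes was 37115 RPM (reads per 1000000 reads on genes) in the week-0 library and 9989 RPM in the week-3 library. Egr3 had 63 reads and 0 reads, and the other 17 had reads in both libraries. With a floor of 3 reads in the week-3 library, the log2 ratio of Egr3 was -3.68, a level 12.8-fold lower. The upper end of its 95% interval from the counts was -3.34. Zfp36 had a higher FPKM than each of the 18 genes in both libraries. Atf3 had the lowest log2 ratio (-5.85), and Srf (-0.22), Socs3 (-0.29) and Fos (-0.79) were not called. By its FPKM in the 2 libraries, Zfp36 was nearest to Ier2 (2007 and 711, log2 ratio -1.50) and Junb (2034 and 645, log2 ratio -1.66), both early genes, at distances of 0.62 and 0.72 on the log2 scale. The part of the early response in the lower levels of Zfp36 and Zc3h12a was not tested.

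The promoter of Zfp36 (RefSeq, GRCm38.p6, 250 bases before to 50 after the RefSeq start) held letters that match the CArG box. The CArG box is the site of serum response factor (SRF), which switches on early genes after growth factor signals. The match is shown because Zfp36 is an early response gene, with the matching letters in capitals, on the minus strand. Whether these letters act as a CArG box or as another promoter element was not tested. A part of SRF in the level of Zfp36 was not tested either.

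Zfp36 (chr7:28379267-28379296): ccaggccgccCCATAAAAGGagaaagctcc

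The match began 58 bases before the RefSeq start, and 1.63% of the 32851 promoters of the table held one on either strand. The RefSeq start lies inside the gene span given above, which ends at 28379255, and GENCODE M21 ends the gene at 28380253. Distances from those ends would differ. Zfp36 also held the STAT motif TTCNNNGAA, found in 8.30% of promoters, 17 bases before the RefSeq start. Its window (28379227 to 28379255) lies within the gene span given above. The promoters of Zfp36l1, Zc3h12a and Elavl1 held neither motif. None of these 4 promoters held GCGTGGGCG (EGR), TGACGTCA (CRE), TGACTCA or TGAGTCA (AP-1) or the NF-kappaB motif, which were found in 0.612%, 1.79%, 5.20% and 8.46% of all promoters. The Zfp36l2 promoter was not analysed here. Such matches say only that these letters are in the window.

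Zfp36l1 had other neighbours than Zfp36. The 2 genes nearest to it in FPKM were the immunoglobulin light chain genes Iglc2 (36.1, then 1.69 at week-3) and Igkv10-94 (35.4, then 2.22), at distances of 0.21 and 0.23 on the log2 scale. Zfp36l1 is known to act in B-lineage cells, so B cell and plasma cell markers were read beside it. The sum of 7 such markers was 909.5 RPM in the week-0 library and 82.1 RPM in the later one. Most of this sum was 1 gene in each library. Jchain had 5120 of the 5781 reads at week-0, and Cd79b had 216 of the 319 reads at week-3. Of the 4 with at least 20 reads, Mzb1, Cd79a and Jchain were lower and Cd79b was not (log2 ratio 0.17). The B cell markers Ms4a1 (9 and 2 reads), Pax5 (5 and 2 reads) and Cd22 (1 and 0 reads) were at few reads in both libraries. The part of B-lineage RNA in the level of Zfp36l1 was not tested. Zfp36l2 was nearest to Gm2000 (211 and 156) and Tmsb10 (241 and 141). Likeness over 2 libraries says only that these genes had like levels in each.

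In all, 6356164 reads fell on genes in the week-0 library, against 3886695 in the week-3 library. The sorting markers Kit (FPKM 16.9 and 11.5) and Ly6a (19.8 and 14.8) had reads in both libraries, and of 9 LSK markers 4 were lower, 1 was higher and 4 were not called. Marker sums in RPM were higher at week-3 for 8 mast cell and basophil markers (345 against 3938, with 7 higher and Prss34 lower) and 9 neutrophil lineage markers (3491 against 16413, all 9 higher). They were lower for 6 erythroid markers (677 against 38.9, all 6 lower), and 5 of 6 T cell markers had fewer than 20 reads. The other T cell marker, Lck, had 313 and 100 reads and a log2 ratio of -0.94 (95% interval -1.28 to -0.61), and was called lower with TMM or median-of-ratios scaling. Of 5 monocyte and macrophage markers, 1 (Ly6c2) was higher and 3 were not called. Bcr (371 and 108 reads) and Abl1 (395 and 144 reads), the genes fused in BA, had log2 ratios of -1.07 and -0.75, and whether reads of the transgene are counted on them is not known.

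Of 10 close relatives of the 5 genes, 6 had at least 20 reads, of which 2 were lower and 1 was higher. Over all genes tested the shares were 15.6% and 10.6%. Zc3h12c, a relative of regnase-1, had 99 and 18 reads and a log2 ratio of -1.75 (95% interval -2.56 to -1.02). Zc3h12b, with 20 and 4 reads, was also called lower, at -1.61 (interval -3.62 to -0.03). Zc3h12d was the gene called higher, with 17 and 28 reads and a log2 ratio of 1.43 (interval 0.51 to 2.39). The regnase-like nuclease N4bp1 (0.36) and the roquin genes Rc3h1 (-0.28) and Rc3h2 (-0.53), whose proteins bind stem-loops as regnase-1 does, were not called. Zfp36l3, a placental member of the Zfp36 family, had 0 reads in both libraries, and the neuronal genes Elavl2, Elavl3 and Elavl4 had at most 6 reads in either. The depth allows a level of up to 0.472 RPM at week-0 and 0.772 at week-3 (3 reads) where no read was found. The FPKM of these 10 genes did not exceed 3.78 at week-0 or 4.06 at week-3.

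Other proteins also bind AU-rich or related elements, as stabilizers or as factors of decay. Of 11 such genes, 1 was lower and 0 were higher, against 15.6% and 10.6% of all genes tested. The median log2 ratio was 0.26. The gene that was lower, Arid5a, encodes a protein known to stabilize Il6 mRNA against regnase-1. It had 2032 and 402 reads, an FPKM of 10.8 and 3.50, and a log2 ratio of -1.63 (95% interval -1.79 to -1.47). Hnrnpc was at -0.21 and Khsrp, which promotes decay, at -0.15. The highest values, all under the limit, were those of Pum2 (0.95), Hnrnpd (0.94), which encodes AUF1, and Tia1 (0.58).

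The enzymes that act after the Zfp36 proteins have bound were not lower as a group. Of 45 genes of deadenylation, decapping and the exosome, 1 was lower and 4 were higher, against 15.6% and 10.6% of all genes tested. Their median log2 ratio was 0.20. In the deadenylation list the scaffold gene of the CCR4-NOT complex, Cnot1, had 637 and 390 reads and a log2 ratio of 0.00179 (95% interval -0.18 to 0.19). Its catalytic subunit genes were at 0.03 for Cnot7, 0.47 for Cnot8, -0.11 for Cnot6 and -0.12 for Cnot6l. The gene called lower was Pan2, of the PAN2-PAN3 deadenylase, with 559 and 128 reads and a log2 ratio of -1.42 (interval -1.71 to -1.14). Its partner Pan3 was at -0.17. The remaining genes of the 15 lay between -0.23 (Cnot11) and 0.28 (Cnot4), with the poly(A)-binding protein gene Pabpc1 at 0.26 and Cnot3 at -0.22.

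In decapping and 5'-3' decay, 0 of 15 genes were past either limit, and the median was 0.20. Edc4 (-0.73), Dcp1b (-0.69) and Lsm3 (-0.56) were the lowest. The decapping enzyme gene Dcp2 was at 0.38 and the exonuclease gene Xrn1 at 0.20, with 114 and 80 reads. Lsm7 (0.99), Lsm2 (0.80) and Lsm1 (0.61), of the ring that binds shortened tails, were the highest.

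Exosome and 3'-5' decay genes had the highest median of the pathway lists, 0.71. Of the 15 genes found, 4 were higher and 0 were lower, and with TMM or median-of-ratios scaling 3 were higher. Over all genes tested, 10.6% were higher and 15.6% lower. Exosc9, a core subunit, had 117 and 175 reads and a log2 ratio of 1.29 (95% interval 0.94 to 1.64). Exosc1 was at 1.18, Wdr61 of the Ski complex at 1.15 and Exosc4 at 1.09. Lowest were the nuclease subunit Exosc10 (-0.49), Skiv2l (-0.28) and Dis3l (0.10). Upf1, the helicase that regnase-1 works with, was at 0.46.

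Among 13 genes known to regulate the 5 proteins, 2 were lower and 0 were higher, with a median log2 ratio of -0.02. The share called lower is close to the 15.6% of all genes tested. Malt1, whose protease cleaves regnase-1, had an FPKM of 11.1 (357 reads) and 2.03 (40 reads), which gave a log2 ratio of -2.45 (95% interval -2.96 to -1.97). Its partner Bcl10 was at -0.94, and was called lower with TMM or median-of-ratios scaling. Dusp1, a phosphatase that turns off p38 and is an early gene, had 17864 and 3460 reads and a log2 ratio of -1.66. The kinase gene Mapkapk2, whose product phosphorylates and inactivates tristetraprolin, had 818 and 849 reads, an FPKM of 42.3 and 71.8, and a log2 ratio of 0.76 (interval 0.62 to 0.90). Its upstream kinase gene Mapk14 was at -0.02. The phosphatase subunit genes Ppp2ca and Ppp2cb, whose products oppose Mapkapk2, were at 0.25 and 0.91, and Btrc was at 0.37.

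The mRNAs on which these proteins act were read next. Of 28 known targets of Zfp36 proteins or regnase-1, 22 had at least 20 reads. Of these 22, 12 were lower, 1 was higher and 9 were not called, with a median log2 ratio of -1.35. Over all genes tested, 15.6% were lower and 10.6% higher. The list was put together from knowledge of these proteins in other cells, and several of its genes are also early or cytokine genes that stimuli induce. Il3, Csf2 and Il12b had 0 reads in both libraries, and Cxcl1, Il2 and Ifng had at most 4 in either.

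Ptgs2, the inducible cyclooxygenase gene, had the lowest ratio, with 253 and 9 reads and a log2 ratio of -4.10 (95% interval -5.25 to -3.16). The regnase-1 target Nfkbid had an FPKM of 276 (6059 reads) and 26.6 (357 reads), with a log2 ratio of -3.38. Il10 was at -3.24, with 108 and 7 reads, Nfkbiz at -2.57 and Notch1, with 981 and 110 reads, at -2.45. Tnf, the mRNA by which tristetraprolin is best known, had 1131 and 119 reads and an FPKM of 58.4 and 10.1, a log2 ratio of -2.54 (interval -2.82 to -2.27). Ccl2 was the gene called higher, with 43 and 193 reads and a log2 ratio of 2.88. Il6 (15 and 16 reads, 0.80) and Myc (0.56) followed, and Gata2 (-0.54) and Tal1 (0.46), stem cell factors among regnase-1 targets, were not called.

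**Figure D3:**
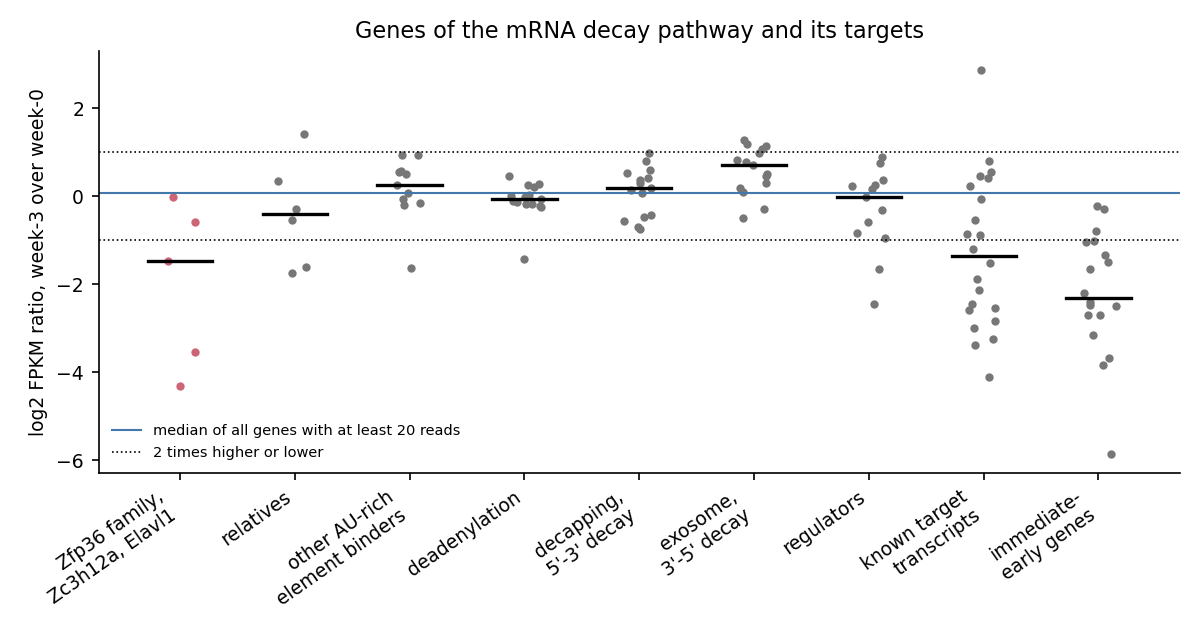
The log2 FPKM ratio (week-3 over week-0) of each gene with at least 20 reads, by list, with black bars at the list medians, the median of all genes in blue and ratios of 2 and 0.5 dotted. Egr3, at 0 reads at week-3, is drawn at its value for a floor of 3 reads. The target transcripts (median -1.35) and the immediate-early genes (median -2.31) lie low, and the lists of decay enzymes lie around or above the median of all genes.

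Targets with and without AU-rich heptamers were set side by side. Of the 13 targets with at least 20 reads and 1 or more heptamers, 8 were lower and 0 were higher, with a median log2 ratio of -1.50. Of the 9 without a heptamer, 4 were lower and 1 was higher, with a median of -0.88. Most of those without a heptamer are known as regnase-1 targets (Nfkbid, Nfkbiz, Icos, Tnfrsf4, Gata2 and Tal1). Regnase-1 cuts at stem-loops, so the split is also one by decay protein. The medians therefore cannot be read as an effect of AU-rich sites. The split also rests on 1 transcript per gene, and heptamers in other transcripts of a gene were not searched. Vegfa, which was called lower, was placed without a heptamer on a UTR of 315 bases. The sites of 3 targets with heptamers are shown. These targets were chosen after their values were seen, because each holds the heptamer within a nonamer and their ratios differ. The heptamer is in capitals.

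Cxcl2 (chr5:90905337-90905363, plus strand): tctatgtattTATTTATttattaattc

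Pim1 (chr17:29495690-29495716, plus strand): ttaatgtattTATTTATttatttattt

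Hif1a (chr12:73946006-73946032, plus strand): tgcaccttttTATTTATttatttttgg

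Cxcl2, with 7 heptamers, had 1224 and 105 reads, a log2 ratio of -2.83. Pim1, with 4 heptamers, had 1853 and 1334 reads, a log2 ratio of 0.24. Hif1a, with 3 heptamers, had 240 and 141 reads and a log2 ratio of -0.06 (95% interval -0.37 to 0.25). Elavl1 itself, with 8 heptamers, was level, and Zc3h12a, with 0, was 11.6-fold lower.

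Across all genes, the median ratio was lower and the share of genes called lower was larger with 2 or more heptamers than with none. Of the genes tested, 10740 had a 3' UTR of at least 50 bases in GENCODE M21. Here too, 1 transcript per gene was searched. The median log2 ratio was 0.10 for the 7776 genes with no heptamer, 0.06 for the 1964 with 1, -0.03 for the 648 with 2 and -0.06 for the 352 with 3 or more, a difference of -0.17 between the last and the first group. The share of genes called lower was 13.0%, 16.7%, 21.1% and 21.0% in the same order, and the share called higher was between 8.91% and 11.9%. UTR length moved with the number of heptamers, from a median of 712 bases with none to 3153 bases with 3 or more. Among UTRs of 1568 bases or more the difference was -0.10 (1792 genes with none, 293 with 3 or more), and between 559 and 1568 bases it was -0.14, with 47 genes in the smaller group. Shorter UTRs held 12 genes with 3 or more heptamers, too few for a value to be read. The middle 50% of the genes with 3 or more heptamers ran from -0.85 to 0.50, and that of the genes with none from -0.48 to 0.56.

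**Figure D4:**
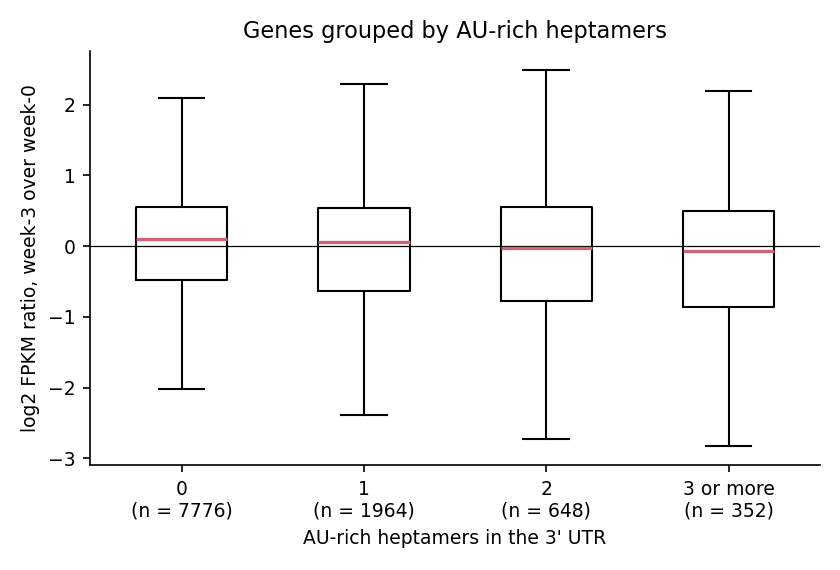
The log2 FPKM ratio (week-3 over week-0) of genes grouped by the number of AU-rich heptamers in the 3' UTR, with boxes for the middle 50% of genes, a red line for the median and whiskers to the farthest gene within 1.5 box lengths. Medians go from 0.10 with none to -0.06 with 3 or more, and the boxes overlap.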

How the data were processed

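Sorted LSKs gave amplified cDNA (SMARTer Ultra Low Input, Clontech), which the authors sequenced from both ends. After trimming, alignment to GRCm38 (mm10) used TopHat2, version 2.0.9 per the submitters' processing notes. The counting tool and annotation release are not given in the sources used here. The deposited counts are whole reads per gene without normalization. The deposited FPKM were scaled by the authors by exon length and by total reads, so a log2 FPKM ratio equals the log2 ratio of reads per total reads within 0.000806.

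Tables were joined by Ensembl identifier. With 1 library per time point, genes were called by the FPKM ratio alone among genes with at least 20 reads over both libraries. Where a library was at 0, a floor of 3 reads was used. The interval of a share of reads at 95% was turned into a ratio. The alternatives used TMM and the exact test of edgeR 4.0.16 with an assumed coefficient of variation, and size factors of DESeq2 1.42.0, in R 4.3.3. Intervals came from scipy 1.17.1, tables from pandas 2.3.3 with numpy 2.4.6, and plots from matplotlib 3.10.9, all under Python 3.11.15. The calls and intervals were tested on simulated data that held counting error only, the error these intervals assume. Changed genes were set past the limit. Spread between mice or from cDNA amplification was not simulated, so the simulation says nothing about it.

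The 5 genes, the gene lists and the tests were chosen with earlier results of these data known. The genes named are the 5 genes, their relatives, the early genes, the 3 highest and 3 lowest of each further list, and for each Zfp36 gene the 2 nearest in FPKM. Others, such as Tnf, Cxcl2, Pim1, Hif1a, Notch1, Nfkbiz, Gata2, Tal1, the Cnot subunits, Dcp2, Xrn1, Upf1, Exosc4, Mapk14 and Ppp2ca, were named after their values were seen for their known roles. The background of genes with 1236 reads or more was also added after the values were seen. Of the exosome list, 15 of 16 genes were found in the tables. The authors' exon model of Zfp36, Zfp36l1 and Elavl1 has other ends than GENCODE M21, which gave the UTRs. A further B cell marker is not reported here.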

Additional observations from a re-analysis of the deposited data

How the results depend on the processing

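The direction of the 4 lower values among the 5 genes held with every scaling and pseudocount tried. TMM scaling moved all log2 ratios by -0.11 and median-of-ratios scaling by -0.09, which exceeds the counting interval of the 2 genes with the most reads. Zfp36 was at -1.58 with TMM and -1.55 with median-of-ratios, and Zfp36l2 at -0.69 and -0.67. As log2(FPKM + 1), Zfp36l1 was at -3.74, since its FPKM at week-3 is near the pseudocount. The count of 3 lower genes among the 5 was 2 with limits of 4 and 0.25 (Zfp36l1 and Zc3h12a) and 2 with the edgeR exact test at an assumed coefficient of variation of 0.4, where Zfp36 was lost. Over all genes, limits of 1.5 and 0.67 gave 3024 lower and 2894 higher, and limits of 4 and 0.25 gave 757 and 254. At least 100 reads left 1004 and 663, since fewer genes were counted. Among genes with reads in both libraries and without a read minimum, 2495 genes were lower and 2191 higher. The edgeR exact test at 0.4 left 87 and 29. The list medians kept their sign with TMM, median-of-ratios, log2(FPKM + 1) and at least 100 reads. The heptamer difference kept its sign with log2(FPKM + 1) and with at least 100 reads. A different contrast, genes with 1 or more nonamers against genes with none, gave a smaller difference of the same sign (-0.06). With 1 library per time point no library could be left out, and the 37 reads of Zfp36l1 at week-3 set the width of its interval. No paired analysis was possible because each time point has 1 library.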
